A study of Mus musculus with 12 samples.

Results

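Ribosome footprints were set against total RNA in control CD4 T cells, to ask which mRNAs of an activated helper T cell were translated well and which poorly. The 6 libraries of control cells were used out of 12 in the series, namely 3 of total cytoplasmic RNA and 3 of ribosome protected fragments (RPFs), and the other 6 came from *Rnmt* cKO cells. The control mice were female *Rnmt* fl/fl CD4cre - animals, which carry *Rnmt* alleles with a floxed exon and no Cre, so that the cap methyltransferase RNMT is kept. The *Rnmt* cKO mice had the same floxed alleles with a Cre driven by the Cd4 promoter, which acts from the double positive stage of thymic development. The strain was C57B6/J, and the age of the mice was not given in the sources used here. Naive CD4 T cells from lymph nodes were activated for 20 h on plates coated with antibodies to CD3 (5 ug/ml) and to CD28 (1 ug/ml), and 0.1 mg/ml cycloheximide was added for 1 min before lysis to hold ribosomes in place. Nothing in the sources says how many mice gave each culture, and p-values measure the spread between these libraries.

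Translation efficiency (TE) is the amount of RPF of a gene relative to its total RNA. An mRNA with many ribosomes per molecule has a high TE, and one that is stored or blocked at initiation has a low TE. Features of the mRNA are known to set part of this: upstream AUGs in the 5′ UTR capture scanning ribosomes, a terminal oligopyrimidine (TOP) tract at the cap ties ribosomal protein mRNAs to mTOR signalling and LARP1, and structured or long untranslated regions add further control. T cells raise translation strongly after T cell receptor stimulation, and much of the early protein gain comes from mRNAs already present.

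RPF reads fall on the coding sequence (CDS) whereas total RNA reads fall along the whole transcript. A second value, TE per length, was therefore computed with the share of the transcript that is CDS as an offset. Both are on the log2 scale, where 0 is the level set by TMM scaling over the 6 libraries, and both are relative to the other mRNAs of the cell, so that the absolute number of ribosomes per mRNA is unknown. The total RNA libraries held 19056917, 18915961 and 19111659 reads counted on genes and the RPF libraries 10661356, 6786164 and 8214622. This lower depth limits precision for genes of few RPF reads, while some genes, such as Uqcrq, varied more in total RNA relative to their mean. Protein-coding genes took 71.4%, 72.4% and 70.2% of these reads in total RNA and 93.1%, 90.4% and 92.3% in RPF. Levels are given as TMM CPM, CPM being a count scaled to library size.

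Markers of the labelled cell type were abundant. Cd4, the co-receptor of helper T cells, stood at 374, 341 and 337 CPM in the total RNA libraries, and each of the 10 CD4 T cell markers was above 1 CPM in all 3, with a summed level of 3960, 3820 and 3690 CPM. The CD8 markers Cd8a and Cd8b1 summed to 22.9, 22.5 and 44.6 CPM. Myeloid markers summed to 1.76, 1.62 and 1.38 CPM over 11 genes, led by Cd68, and 3 of them (Csf1r, Cd14 and S100a8) were at 0. NK cell markers summed to 6.17, 8.53 and 9.56 CPM over 6 genes, led by Klrd1, and none was at 0 in all 3 libraries. The 5 regulatory T cell markers summed to 375, 378 and 361 CPM, led by Il2ra, which activation also induces, with Foxp3 at 0.963, 0.837 and 0.749 CPM. B cell markers summed to 341, 326 and 383 CPM over 10 genes, of which Ighm gave 307, 299 and 291 CPM, and none of the 10 was at 0. Ms4a1 was at 3.34, 1.78 and 14.2 CPM and Pax5 at 1.98, 0.837 and 7.31 CPM, so both were highest in total RNA replicate 3, as was Cd8a, and the part of these cells in the results was not tested. Rnmt itself was at 102, 99.2 and 101 CPM in total RNA and 95.9, 81.2 and 91.1 CPM in RPF of control cells, against 31.4, 34.7 and 32.5 CPM in total RNA and 9.91, 9.80 and 9.05 CPM in RPF of *Rnmt* cKO cells.

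TE differed widely between mRNAs. Of 49585 genes in the count files, 11544 passed the filter of 1 CPM in at least 3 of the 6 libraries, and 10268 of these are protein-coding. Their median log2 TE was -0.02, the middle 50% lay between -0.68 and 0.57, and the 10% and 90% points were 5.93-fold apart. With edgeR's quasi-likelihood test, a gene was called high in TE at a Benjamini-Hochberg adjusted p below 0.05 and a fitted log2 TE of at least 1 (a 2-fold excess of RPF), and low at -1 or less. By this rule 1294 protein-coding genes were high (12.6%) and 1704 were low (16.6%). A gene of few reads could pass the filter through 1 kind of library alone, the kind in which it was higher. The 3 RPF libraries lay wholly above the 3 total RNA libraries in 1287 of the 1294 and wholly below in 1700 of the 1704, while 78.3% of the protein-coding genes tested showed no overlap in either direction. Over all 11544 genes, 14.3% were high and 19.7% low. Without TMM scaling the median of the protein-coding genes moved to 0.19, and 1823 were high and 1327 low, so that the balance of high against low calls rests on the scaling. In TE per length 1938 genes were high (18.9%) and 1545 low (15.1%), and 910 genes were high and 1038 low in both measures. No gene went from high to low, and 32 went from low to high.

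**Figure D1:**
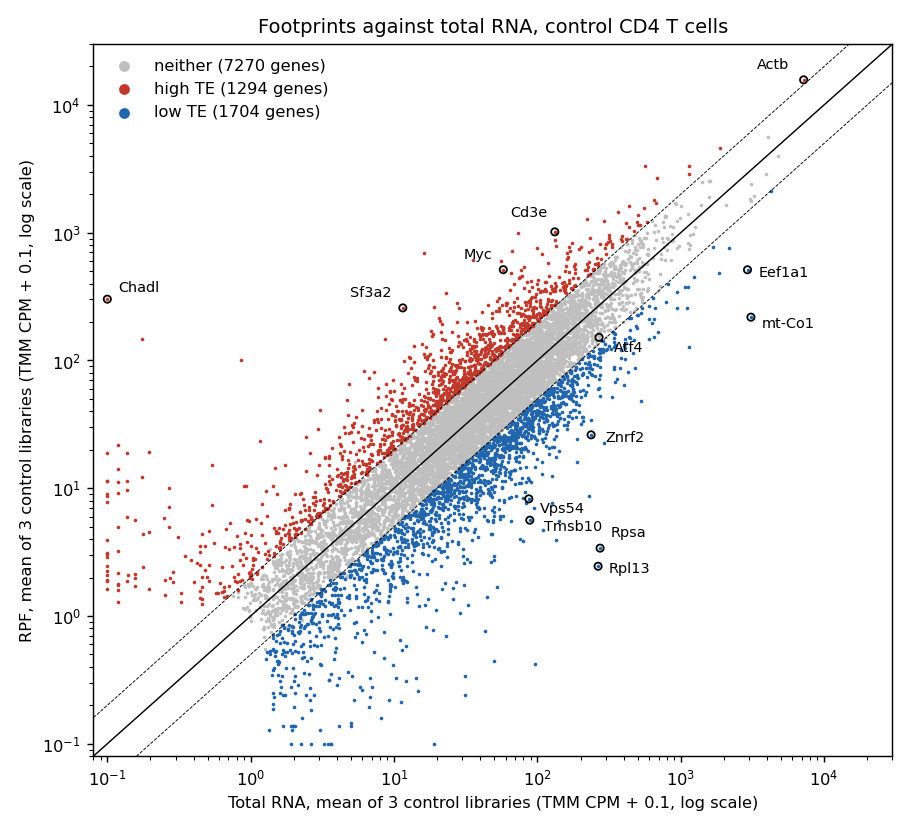
Mean RPF against mean total RNA of the 3 control libraries each, in TMM CPM plus 0.1 on log axes, one point per protein-coding gene. The solid line marks equal values and the dashed lines a 2-fold difference, with 1294 genes of high TE above and 1704 of low TE below. Circled genes are named in the text.

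The lowest TE values belonged to genes that share their coding sequence with other genes. The files count uniquely aligned reads, so the share of 30-base windows of each CDS that occur in no other annotated gene was computed. In the 361 genes with under 10% unique windows the median log2 TE was -1.13 and 51.8% were low, against 13.3% of the 6033 genes whose windows were all unique, where the median was 0.03. The 10 lowest genes by the naming rule were Gm2000, Tmed2, Wdr77, Srprb, Rpl13, Rpsa, Dgcr2, Lypla1, Nudt21 and Ube2l3, and each had under 10% unique windows. Gm2000, Tmed2, Wdr77 and Srprb were below 1 CPM in every RPF library, so they passed the filter through total RNA alone. Rpl13, a protein of the large ribosomal subunit, was at 276, 259 and 259.9 CPM in total RNA and 2.60, 2.65 and 1.81 CPM in RPF, a log2 TE of -6.81 with 0% unique windows. Rpsa, of the small subunit, was at 282, 288 and 251 CPM in total RNA and 2.77, 4.18 and 2.94 CPM in RPF. The RPF values of these genes are uncertain, and which part of their low ratio is translation cannot be told apart from lost reads. Among the 7919 genes with at least 90% unique windows, 1052 were high (13.3%) and 1081 low (13.7%), with a median of 0.03. The highest and lowest genes described next were taken from these, a choice made after the values were seen, while the lists count all tested members.

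**Figure D2:**
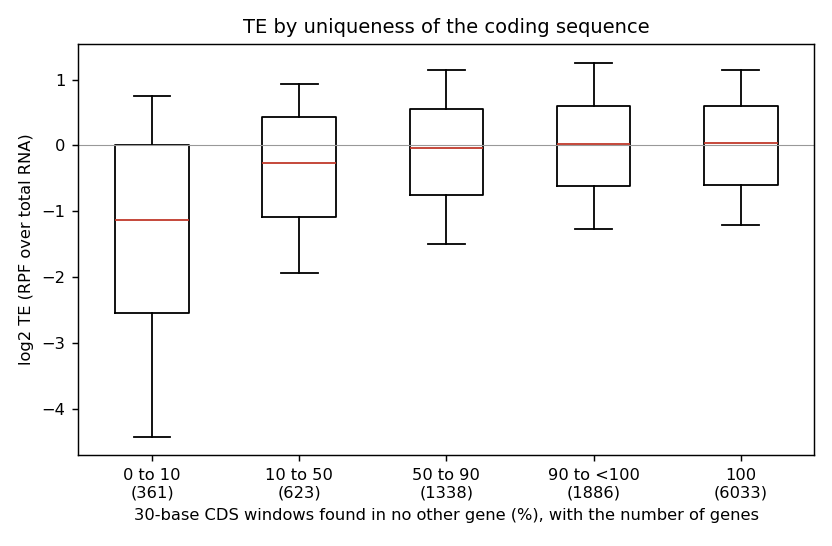
Log2 TE of protein-coding genes by the percentage of 30-base CDS windows found in no other annotated gene. Boxes span the middle 50% of genes, red lines are medians and whiskers reach the 10% and 90% points. The lowest class holds 361 genes and has a median of -1.13, and the class with all windows unique holds 6033 genes and has a median of 0.03.

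Among genes with unique coding sequence and more than 1 CPM in each of the 6 libraries, the highest TE belonged to Sf3a2, a subunit of the U2 snRNP splicing factor SF3a (GRCm38 chr10:80798198-80804924, plus strand). It was at 11.6, 10.0 and 12.7 CPM in total RNA and 252, 276 and 245 CPM in RPF, a log2 TE of 4.50 (SE 0.10, edgeR adjusted p = 3.5e-09), or 22.6-fold more footprint than RNA. Apbb1ip, the Rap1 adaptor RIAM that links T cell receptor signals to integrins, was at 6.79, 8.31 and 10.6 CPM in total RNA and 150.3, 153 and 135 CPM in RPF (log2 TE 4.09, SE 0.14). In both, every RPF value lay far above every total RNA value. Tgfb1, which encodes the immunosuppressive cytokine TGFβ1, was at 17.6, 14.9 and 24.4 CPM in total RNA and 250.4, 262 and 270.4 CPM in RPF (log2 TE 3.78, SE 0.15). Pcbp1, a poly(C)-binding protein, was at 58.4, 69.9 and 92.9 CPM in total RNA and 928, 1047 and 1009 CPM in RPF (log2 TE 3.75, SE 0.16). Laptm5, a lysosomal protein that lowers surface T cell receptor, was at 54.7, 65.1 and 48.4 CPM in total RNA and 587, 600.5 and 607 CPM in RPF (log2 TE 3.42, SE 0.11). The other 5 by the same rule were Uqcrq, Ankrd60, Gm17087, Tmem39b and Prr12, with log2 TE between 3.46 and 3.90. The groups of libraries did not overlap for any of the 10, as the rule required. Uqcrq, a small subunit of respiratory complex III, varied most in total RNA, at 17.4, 13.8 and 37.2 CPM, against 358, 318 and 343 CPM in RPF. In 8 of these 10 genes total RNA replicate 3 was above the mean of the other two, with a median log2 difference of 0.34 against 0.00 over all protein-coding genes, and the part of this library in their values was not tested beyond leaving it out.

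At the other end, with unique coding sequence, was Vps54, a subunit of the GARP complex that tethers vesicles at the Golgi (chr11:21239281-21321136, plus strand). It was at 82.5, 86.4 and 92.2 CPM in total RNA and 9.27, 5.71 and 9.49 CPM in RPF, a log2 TE of -3.39 (SE 0.14, edgeR adjusted p = 5.0e-08), or 10.5-fold less footprint than RNA. Znrf2, a membrane-bound E3 ubiquitin ligase, was at 245, 226 and 239 CPM in total RNA and 24.2, 25.9 and 28.1 CPM in RPF (log2 TE -3.19, SE 0.08), and it was at -1.08 in TE per length. Fbxw7, the ubiquitin ligase subunit that marks MYC and cyclin E for degradation, was at 69.9, 71.2 and 72.7 CPM in total RNA and 9.96, 8.63 and 7.12 CPM in RPF (log2 TE -3.04, SE 0.11, and -3.74 per length). In all 3 every RPF library lay far below every total RNA library. Usp31, a deubiquitinase, followed at -3.17 (SE 0.11). The other 6 were Zfp329, Fam126b, Dnajc27, Fam102b, Atxn1l and Adamts6, with log2 TE between -3.28 and -2.98. Upstream AUGs were annotated in 8 of the 10, up to 5 in Atxn1l and Adamts6, with none in Znrf2 and no value for Usp31. Among the 10 highest genes they were annotated in 3 of the 8 with a value, with 3 in Sf3a2 and 1 each in Apbb1ip and Laptm5, and among all 5′ UTRs of at least 20 bases in 52.6%.

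**Figure D3:**
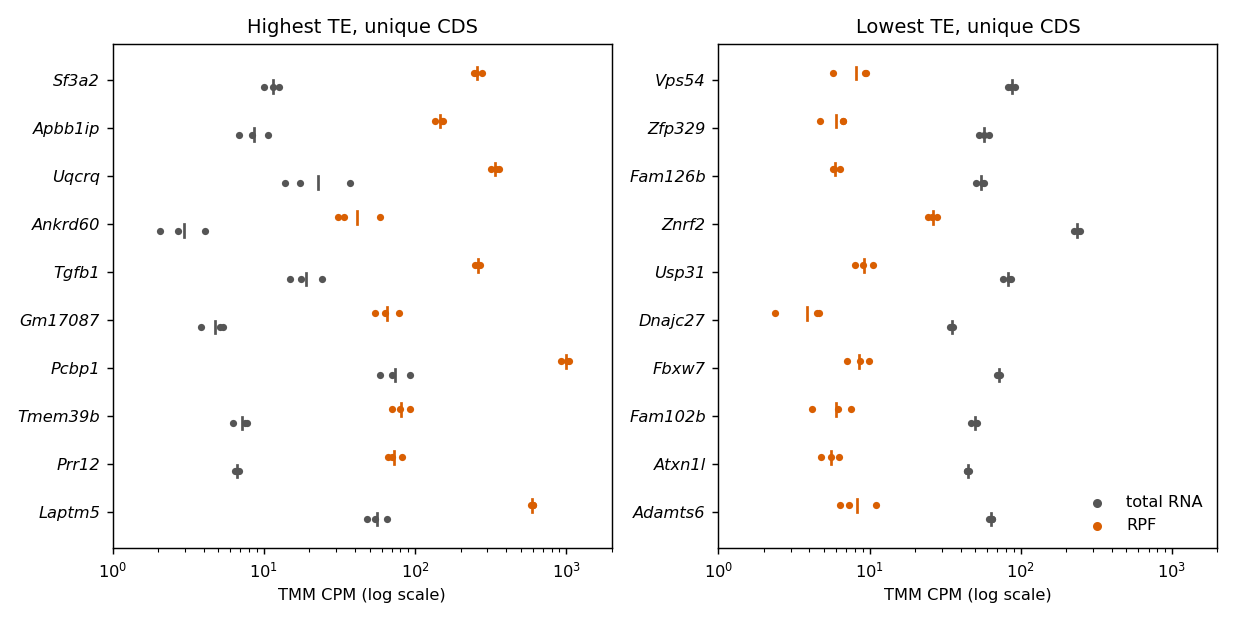
TMM CPM on a log axis in each of the 3 total RNA (grey) and 3 RPF (orange) control libraries, for the 10 genes of highest and the 10 of lowest TE by the naming rule among genes with at least 90% unique CDS windows. Vertical marks are means of the 3 libraries. Within each gene the orange and the grey points do not overlap.

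The mRNAs of ribosomal proteins had few uniquely aligned footprints for their RNA. Of 80 tested, 52 were low (65.0%) and 1 was high, with a median log2 TE of -1.58 against -0.02 over all protein-coding genes, and 60 of the 80 had under 10% unique windows. Among all protein-coding genes 16.6% were low, and among the 361 with under 10% unique windows 51.8%, with a median of -1.13, so for most members translation cannot be told apart from lost reads. Some members had more unique windows. Rps3 (79.9% unique) was at 3240, 3244 and 2838 CPM in total RNA and 1783, 1749 and 1795 CPM in RPF, a log2 TE of -0.81 (SE 0.07, edgeR adjusted p = 4.5e-06). Rpl4 (59.6% unique) was at -0.76 and Rpl8 (88.9% unique) at -0.34. All 3 were below the middle of the distribution, and none of them was 2-fold lower. Rpl28, with 0% unique windows, was highest at 2.58, and Rpl10-ps3 was lowest, with 1002 reads in total RNA and none in RPF, at least 174-fold lower against a floor of 3 counts over the group. The list median stayed at -1.58 with this gene at its bound.

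Other mRNAs of the TOP class were divided. Of 20 translation factors and partners, 8 were low (40.0%, against 16.6% of all protein-coding genes) and none was high, with a median of -0.24. The sign turned with the GC content of the CDS as an offset (0.17) and in the 4 members with at least 90% unique windows, whose median was 0.51 with 1 low. Eef1a1, the elongation factor that brings aminoacyl-tRNA to the ribosome, was at 3045, 2958 and 2769 CPM in total RNA and 543, 461 and 533 CPM in RPF (log2 TE -2.51, SE 0.08), with 11.5% unique windows. Eef2, the translocase of elongation, was at 4081, 3940 and 3729 CPM in total RNA and 2784, 2843 and 3064 CPM in RPF (log2 TE -0.43, SE 0.07). Tpt1, a growth-related TOP mRNA, was at -1.53 with 0% unique windows. Eif4b stood at -1.58 and Eef1b2 at -1.12 (-0.53 per length), whereas the eIF3 subunits Eif3h, Eif3k and Eif3l lay between 0.49 and 0.76, of which Eif3k (-0.16) and Eif3l (-0.24) were below 0 per length. A TOP start was thus found in mRNAs on both sides. The first bases of 4 transcripts are shown because their annotated start holds the tract itself (capitals, the unbroken run of C and T from the first base), as read from the GENCODE vM21 transcripts on GRCm38.
Rpl4, log2 TE -0.76, chr9:64173375-64173389 on the plus strand: CTTTTCCTgtgggag
Rack1, log2 TE -1.01, chr11:48800360-48800374 on the plus strand: CTTTTTCTCCacagg
Pabpc1, log2 TE 0.65, chr15:36608959-36608973 on the minus strand: CCCCTTCTCCCCggc
Eif3f, log2 TE 0.97, chr7:108934417-108934431 on the plus strand: CTCTTTCTCggcaag
Rack1, a ribosome-bound scaffold, was at 4492, 4405 and 3968 CPM in total RNA and 2177, 2035 and 2176 CPM in RPF, with 94.9% unique windows. Pabpc1, the cytoplasmic poly(A)-binding protein, was at 332, 327 and 383 CPM in total RNA and 518, 539 and 577 CPM in RPF. Eif3f, a subunit of the initiation factor eIF3, was at 212, 174 and 207 CPM in total RNA and 378, 371 and 409 CPM in RPF, with 99.0% unique windows. The 2 TOP mRNAs Rack1 and Eif3f, both with nearly unique coding sequence, thus stood on opposite sides. Neither had overlap between the kinds of library, as was so for 78.3% of all protein-coding genes tested. Across the transcriptome a start of C and at least 4 further pyrimidines was annotated in 219 of 9898 5′ UTRs of at least 20 bases (2.21%), with a median log2 TE of 0.10 against -0.02 for the others. Of the 219, 17.8% were high and 21.5% low, against 12.4% and 16.4% of the others. Annotated starts often differ from those used in a given cell, and no match says only that these letters are not at the annotated start.

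mRNAs known to be controlled by upstream open reading frames lay below the middle. Of 16 tested, 5 were low (31.2%, against 16.6% of all protein-coding genes) and none high, with a median of -0.93. Among the 10 with at least 90% unique windows, 4 were low (40.0%, against 13.7% of all such genes) and the median was -0.97. Ddit3, the stress transcription factor CHOP, was at 20.0, 20.1 and 21.2 CPM in total RNA and 5.37, 4.46 and 7.45 CPM in RPF (log2 TE -1.82, SE 0.17). Atf4, the master factor of the integrated stress response, was at 277, 264 and 267 CPM in total RNA and 161, 123.4 and 171 CPM in RPF (log2 TE -0.83, SE 0.11, edgeR adjusted p = 6.8e-05), below the 2-fold mark. Its kinds of library did not overlap, as in 78.3% of all protein-coding genes tested. Ppp1r15a, the GADD34 subunit that reverses eIF2α phosphorylation, was at 22.8, 16.6 and 26.1 CPM in total RNA and 12, 8.49 and 12.8 CPM in RPF (log2 TE -0.96, SE 0.20), and its call at the 2-fold mark changed with several settings. Odc1, which opens polyamine synthesis, was at -0.99 with 17.0% unique windows, and its partner Oaz1, antizyme, at -0.41. Atf5 was highest of the list at 0.88, and Amd1, with 0% unique windows, lowest at -5.12. The start contexts of Atf4 and Ddit3 are shown because these are the textbook cases, with 6 bases before the AUG and 4 after it, and the AUG (as ATG) in capitals.
Atf4 upstream AUG 1, chr15:80255297-80255309: tctctcATGgggc
Atf4 upstream AUG 2, chr15:80255576-80255588: gccaccATGgcgt
Atf4 upstream AUG 3, across an exon junction: taagccATGgcgc
Atf4 main start, chr15:80256293-80256305: cacaacATGaccg
Ddit3 upstream AUG 1, chr10:127290823-127290835: tatatcATGttga
Ddit3 upstream AUG 2, chr10:127290832-127290844: ttgaagATGagcg
Ddit3 main start, chr10:127295335-127295347: gcagtcATGgcag
All are on the plus strand. In Atf4 the second upstream AUG opens a frame of 3 codons, 196 bases before the main start, and the third opens one of 59 codons that runs past the main start. In Ddit3 the 2 upstream AUGs open frames of 34 and 31 codons that both end before the main start. Ppp1r15a has 7 upstream AUGs in its annotated 5′ UTR of 764 bases, and the seventh, 77 bases before the main start, opens a frame of 50 codons that runs past it.

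The number of upstream AUGs went with TE across the transcriptome. At least 1 was annotated in 52.6% of the 9898 5′ UTRs of at least 20 bases. Among genes with unique coding sequence the median log2 TE was 0.19 in the 3593 genes with none, -0.05 in the 1741 with 1, -0.12 in the 860 with 2 and -0.33 in the 1478 with 3 or more. Low TE was found in 7.65% of the first group and 24.9% of the last. The same order held per length, from 0.27 to -0.11. Within each of the 5 classes of 5′ UTR length the genes with an upstream AUG had the lower median, for example -0.17 against 0.27 between 232 and 361 bases. These are descriptions across genes, which share the libraries and are not replicates.

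GC content of the CDS rose with TE. With the genes split into 5 equal classes, in the class of lowest GC (up to 46.9%) the median log2 TE was -0.31 and 22.0% were low, and in the class of highest GC (from 57.9%) it was 0.26 and 21.5% were high. Across 7919 genes Spearman's rho was 0.23, and 0.18 per length. Base composition also affects how libraries of short fragments are copied and aligned, and its part was not tested. 3′ UTR length gave opposite pictures in the 2 measures: the median fell from 0.40 in the shortest class to -0.45 in the longest in TE and went from -0.08 to 0.52 per length. CDS length was nearly flat in TE (0.09 to -0.01) and fell from 0.67 to -0.44 per length. Statements that rest on UTR or CDS length therefore depend on which measure is used, whereas those on upstream AUGs and GC content held in both. GC of the 5′ UTR was highest in TE in the middle class (median 0.13) and lower at both ends (-0.07 and -0.12).

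**Figure D4:**
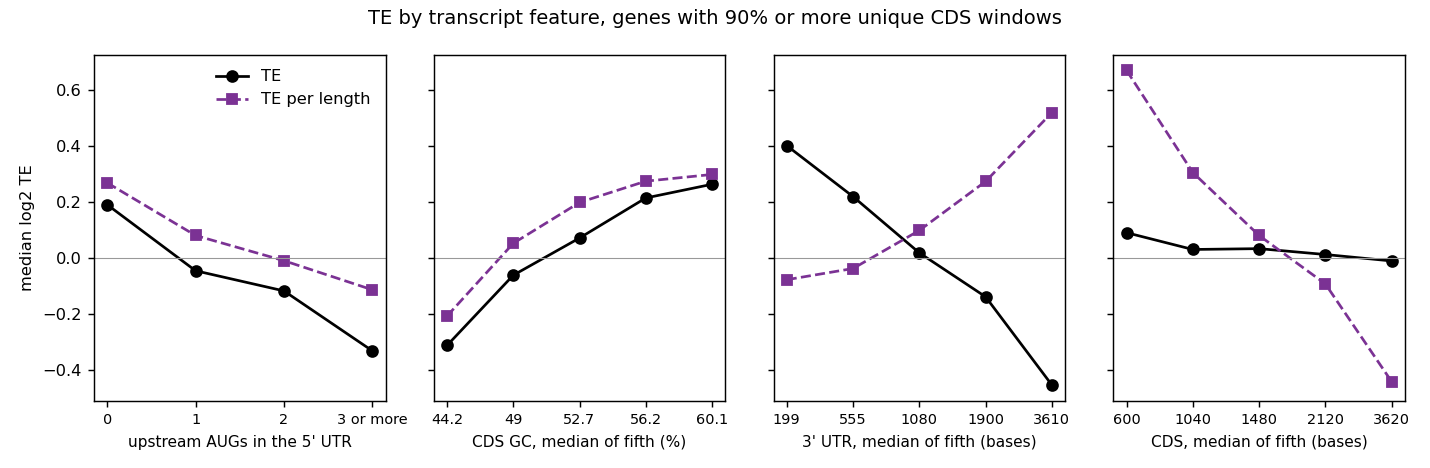
Median log2 TE (black circles) and TE per length (purple squares) of genes with at least 90% unique CDS windows, by number of upstream AUGs and by 5 equal classes of CDS GC content, 3′ UTR length and CDS length. TE falls from 0.19 to -0.33 with upstream AUGs and rises from -0.31 to 0.26 with GC content, and the measures run in opposite directions for 3′ UTR length.

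T cell transcription factors stood on the high side. Of 58 tested, 19 were high (32.8%, against 12.6% of all protein-coding genes) and 1 was low, with a median of 0.52, and 28 were high per length, against 18.9% of all protein-coding genes. Their CDS had a median GC content of 57.7%, and the list median was 0.34 with GC as an offset. In the class of highest GC, from 57.9%, 21.5% of all genes with unique coding sequence were high. Myc, which drives growth after activation, was at 50.0, 50.9 and 72.3 CPM in total RNA and 495, 473 and 572 CPM in RPF (log2 TE 3.15, SE 0.15, edgeR adjusted p = 8.9e-08). Gata3, the Th2 regulator, was at 2.55, 2.56 and 2.42 CPM in total RNA and 19.9, 16.4 and 19.5 CPM in RPF (log2 TE 2.89, SE 0.15). The immediate early and calcium-responsive factors Egr3, Nfatc1, Nr4a1 and Nfatc2 were at 2.38, 2.19, 1.60 and 1.83, and the quiescence factors Klf2 and Tcf7 at 2.24 and 1.59. Irf4, induced in proportion to T cell receptor signal strength, was at 930.2, 889 and 1118 CPM in total RNA and 699.7, 727 and 928 CPM in RPF (log2 TE -0.32, SE 0.12, and 0.57 per length), with overlap between the kinds of library. Ikzf2, Helios, was lowest at -2.18, with -0.56 per length.

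Among T cell surface receptors 8 of 34 were high (23.5%, against 12.6% of all protein-coding genes) and 1 was low (2.94%, against 16.6%), with a median of 0.31. Per length 12 were high and none low, against 18.9% and 15.1% of all protein-coding genes. Cd3e, a signalling chain of the T cell receptor complex, was at 128, 119 and 150.3 CPM in total RNA and 1083, 914 and 1047 CPM in RPF (log2 TE 2.94, SE 0.11). Its partners Cd3g and Cd3d were at 0.70 and 0.57, and Cd247, the zeta chain, at -0.67 (0.12 per length), so that the chains of the same complex differed widely. The inhibitory receptors Tigit and Lag3 were at 3.36 and 3.18, whereas Ctla4 and Pdcd1 were at -0.35 and -0.26 (0.24 and -0.04 per length). Cd4 was at 0.80 (SE 0.07). Il2ra, the high affinity IL2 receptor chain CD25, was at 176, 188 and 198 CPM in total RNA and 226, 246 and 242 CPM in RPF (log2 TE 0.34, SE 0.07, and 1.86 per length). Cd28, the co-stimulatory receptor, was at 1219, 1161 and 1115 CPM in total RNA and 870.5, 784 and 758 CPM in RPF (log2 TE -0.53), and it was at 1.26 per length, on the other side of 0. Il7r, the receptor for a survival cytokine of naive cells, was lowest at -1.11, and was no longer called low per length (-0.68), with the GC offset (-0.71) or without RPF replicate 2 or 3.

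mRNAs of cytokines and cytotoxic effectors differed from each other. Of 27 listed, 15 were tested, among them Gzmb and Prf1 for granzyme B and perforin. Of the 15, 6 were high (40.0%, against 12.6%) and none low, with a median of 0.71. Besides Tgfb1, the chemokines Ccl5, Ccl4 and Ccl3 were at 3.12, 1.06 and 1.05 and lymphotoxin alpha, Lta, at 1.42. Ifng, Il2 and Tnf were not called high, while others such as Il4, Il10, Il17a and Il21 did not pass the filter. Ifng was at 2.04, 1.51 and 3.28 CPM in total RNA and 2.77, 2.09 and 2.15 CPM in RPF (log2 TE 0.06, SE 0.33), and Il2 at 10.9, 6.30 and 8.52 CPM in total RNA and 8.57, 6.96 and 8.47 CPM in RPF (log2 TE -0.09, SE 0.21), both with overlap between the kinds of library. Tnf was at 64, 54.3 and 60.6 CPM in total RNA and 37.2, 38.0 and 42.6 CPM in RPF (log2 TE -0.60, SE 0.09, edgeR adjusted p = 0.00017). Every RPF value was below every total RNA value, and 78.3% of all protein-coding genes tested showed no overlap in either direction.

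Lists of other parts of protein synthesis and turnover are read against the shares over all protein-coding genes. These are 12.6% high and 16.6% low, or 18.9% and 15.1% per length. All 20 aminoacyl-tRNA synthetases tested had a fitted log2 TE above 0, from 0.01 in Sars to 1.36 in Vars (0.56 per length), and 2 were high (10.0%) with a list median of 0.74. Per length the median was 0.19, against 0.09 over all protein-coding genes, and none was high. Proteasome subunits had a median of 0.64, with 7 of 37 high (18.9%) and none low, led by Psmd7 at 2.18. Per length 7 were again high and none low, with a median of 0.38. The 7 CCT chaperonin subunits lay between 0.16 in Tcp1 and 0.81 in Cct8, none of them past the 2-fold mark, although the median was 0.00 per length. Translation initiation factors had a median of 0.29, with 6 of 42 high (14.3%) and 6 low (14.3%), both near the shares over all genes, and per length 10 were high and 5 low. Eif5b, which joins the ribosomal subunits, was at 45.0, 48.6 and 59.7 CPM in total RNA and 246, 243 and 246 CPM in RPF (log2 TE 2.26, SE 0.10), and the repressor of eIF4E Eif4ebp2 was at 2.18. The 6 low members, among them Eif3j1 (-6.76) and Eif4a1 (-2.87), each had under 90% unique windows. Eif3j1 was at 4.36, 3.79 and 6.68 CPM in total RNA and 0, 0 and 0.113 CPM in RPF. It passed the filter through total RNA alone, where it was higher, and its ratio is uncertain. Nucleolar and ribosome biogenesis factors had a median of 0.35, with 9 of 40 high (22.5%) and 1 low, and per length 11 high and 4 low. Gar1, of the box H/ACA snoRNPs, was at 3.39 and Ncl, nucleolin, at 2.54, while Taf1d, a gene that hosts several snoRNAs, was at 550, 497 and 535 CPM in total RNA and 43.8, 53.3 and 47.3 CPM in RPF (log2 TE -3.46, SE 0.09). Heat shock chaperones had 4 of 15 high (26.7%) and 3 low, from Dnajb6 at -1.91, with 1.14% unique windows, to Bag3 at 2.94.

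Among metabolic lists the share of high calls ran from near the 12.6% of all protein-coding genes to above it. Counts per length are read against 18.9% high and 15.1% low. TCA cycle enzymes had a median of 0.70 with 7 of 22 high (31.8%) and none low, from Pdha1 at -0.36 to Mdh2, malate dehydrogenase, at 99.9, 101 and 120.3 CPM in total RNA and 693, 668 and 678 CPM in RPF (log2 TE 2.66, SE 0.08). Glycolysis had a median of 0.67 with 5 of 20 high (25%). Slc2a1, the glucose transporter GLUT1, was at 33.9, 31.2 and 33.4 CPM in total RNA and 87.8, 82.3 and 95.2 CPM in RPF (log2 TE 1.43, SE 0.08), while its relative Slc2a3 was at -0.79. Gapdh was at 1.45 and Eno1 at 1.71, but with 0% and 10.1% unique windows, and the 2 low members Pgam1 (-4.16) and Pgk1 (-4.11) had 0%. Pgam1 was at 0.0866, 0.139 and 0.452 CPM in RPF, so it passed the filter through total RNA alone, where it was higher. Nuclear genes of the respiratory chain had a median of 0.45 with 14 of 74 high (18.9%) and 8 low (10.8%), and among the 33 with unique coding sequence 9 were high and none low, against 13.3% and 13.7% of all such genes. Per length 21 of the 74 were high and 6 low. Mitochondrial ribosomal proteins had a median of 0.44 with 10 of 76 high (13.2%) and 3 low, and per length 31 were high, against 18.9% of all protein-coding genes, with a median of 0.64. They ran from Mrpl23 at -1.72, with 0% unique windows, to Mrpl14 at 2.40. Of the amino acid transporters and Tfrc, 3 of 11 were high (27.3%) with a median of 0.27, and per length 6 were high with a median of 1.245. Slc7a5, the large neutral amino acid transporter, was at 94.0, 93.4 and 93.9 CPM in total RNA and 189, 174 and 192 CPM in RPF (log2 TE 0.98, SE 0.06), and Slc1a4 was highest at 2.00 and Slc43a1 lowest at -0.45. Sterol and fatty acid synthesis had a median of 0.35 with 4 of 27 high (14.8%) and 1 low, and per length 9 were high with a median of 0.68. They ran from Elovl6 at -2.06, not called per length (-0.10), to Dhcr7 at 2.61.

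Mitochondrially encoded mRNAs, which mitochondrial ribosomes translate, were tested in 8 cases, with 2 low and 1 high and a median of -0.39, against 16.6% low and 12.6% high over all protein-coding genes. mt-Co1, of cytochrome c oxidase, was at 3236, 2866 and 3165 CPM in total RNA and 263, 212 and 179.5 CPM in RPF (log2 TE -3.82, SE 0.14), with 35.2% unique windows, and mt-Nd1, of complex I, was at -3.15. mt-Nd6, the one member encoded on the light strand, was highest at 1.21 (0.28 per length). The median was -1.32 per length, with 6 low and none high, against 15.1% and 18.9% of all protein-coding genes. It was 0.42 with the GC content of the CDS as an offset, so the place of the list depends on the measure. How well cycloheximide and the nuclease treatment capture mitochondrial ribosomes was not tested.

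**Figure D5:**
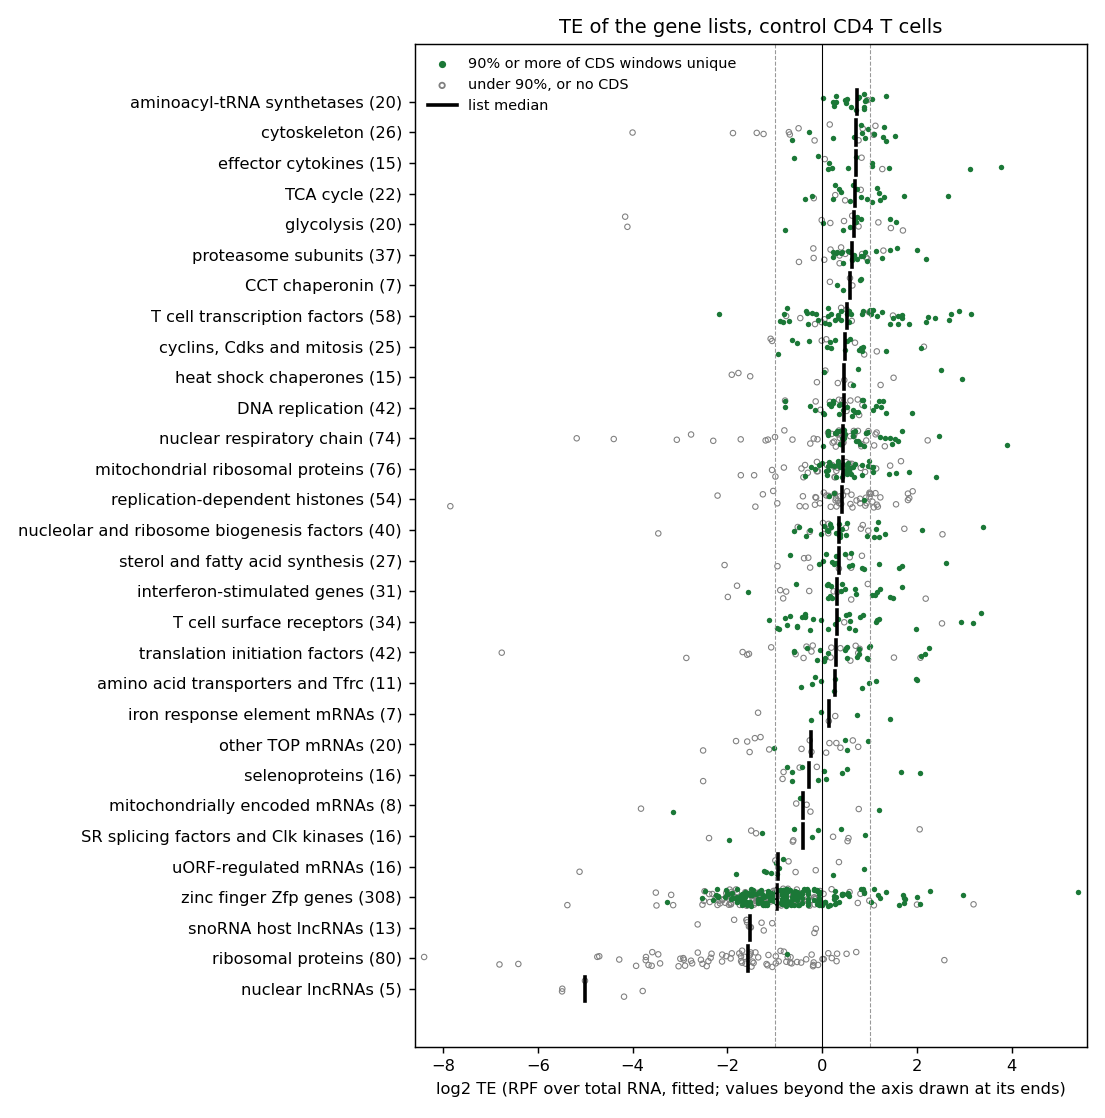
Fitted log2 TE of each tested member of the gene lists, ordered by list median (black bars), with the number tested in parentheses. Green points have at least 90% unique CDS windows and open points fewer or no CDS. Medians run from 0.74 in aminoacyl-tRNA synthetases to -1.58 in ribosomal proteins and -5.00 in nuclear lncRNAs, and dashed lines mark the 2-fold limits.

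Zinc finger Zfp genes, many of them KRAB-type repressors of retroelements, held many genes of low TE. Of 308 tested, 147 were low (47.7%, against 16.6%) and 18 high (5.84%), with a median of -0.96. With unique coding sequence 84 of 199 were low (42.2%, against 13.7%) and 15 high (7.54%), with a median of -0.82. Their CDS had a median GC content of 46.8%, and 22.0% of the genes with unique coding sequence in the class of lowest GC were low. The list median was -0.69 with GC as an offset, which was fitted to these same TE values, and -0.89 per length. The part of GC content was not tested. Zfp329 was at 61.9, 52.9 and 57.2 CPM in total RNA and 4.68, 6.68 and 6.66 CPM in RPF (log2 TE -3.28, SE 0.14). Zfp991, with 1.48% unique windows, was lowest at -5.38, and it passed the filter through total RNA alone, where it was higher. Zfp575 was the highest of the list, with 0, 0 and 1 reads in total RNA and 25, 95 and 158 in RPF, too few in total RNA for a ratio to be given.

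Splicing regulators differed from each other. Of 16 SR proteins and Clk kinases, 5 were low (31.2%, against 16.6% of all protein-coding genes) and 1 high, with a median of -0.40. Per length the median was 0.21, with 3 low and 4 high, against 15.1% and 18.9% of all protein-coding genes. Among the 7 with at least 90% unique windows 2 were low. Clk1 and Clk4, the kinases that phosphorylate SR proteins and whose own transcripts often retain introns, were at 183, 181 and 190.5 CPM in total RNA against 80.4, 69.5 and 78.4 CPM in RPF (log2 TE -1.28, Clk1) and at -1.98 (Clk4), and they stayed low per length at -1.90 and -2.47. Srsf3, with 6.01% unique windows, was lowest at -2.39 (-0.91 per length) and Srsf4 highest at 2.06. Srsf7 was at 223, 244 and 224 CPM in total RNA and 349, 309.8 and 344 CPM in RPF (log2 TE 0.54, SE 0.07).

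The counts of the next lists are read against 12.6% high and 16.6% low over all protein-coding genes, or 18.9% and 15.1% per length. The 7 mRNAs with an iron response element had a median of 0.14. Fth1, ferritin heavy chain, was at 70.0, 69.9 and 101 CPM in total RNA and 88.2, 96.2 and 81.5 CPM in RPF (log2 TE 0.14, SE 0.14). Tfrc, the transferrin receptor, was at 899, 891 and 882 CPM in total RNA and 946, 804 and 864 CPM in RPF (log2 TE -0.03, SE 0.07). Ftl1, with 4.40% unique windows, was lowest at -1.35 and Epas1 highest at 1.43. Epas1 was at 0.623, 0.502 and 0.461 CPM in total RNA, so it passed the filter through RPF alone, where it was higher. Selenoproteins, which need a stop codon to be read as selenocysteine, had a median of -0.27 with 2 of 16 high (12.5%) and 1 low, from Selenok at -2.51, with 18.4% unique windows and not called per length (-0.88), to Txnrd2 at 2.07, and per length the median was 0.04 with 4 high. DNA replication factors had a median of 0.46 with 7 of 42 high (16.7%) and none low, from Rfc5 at -0.78 to Lig1 at 1.91. Per length 6 of the 42 were high and none low, with a median of 0.29. Cyclins, Cdks and mitotic genes had a median of 0.49 with 4 of 25 high (16%) and 2 low, with Plk1 highest at 2.15 and Cdk6 lowest at -1.09, the latter turning to 1.54 per length, where 9 of the list were high and 3 low. Cytoskeletal genes had a median of 0.72 with 7 of 26 high (26.9%) and 4 low. Per length 6 of them were high and 6 low, with a median of 0.56. Actb was at 7165, 7406 and 7044 CPM in total RNA and 16620, 14200 and 16330 CPM in RPF (log2 TE 1.12, SE 0.08, and 0.96 per length), Myh9 was highest at 1.53 (0.94 per length), and Tmsb10, with 0% unique windows, lowest at -4.0. Interferon-stimulated genes had a median of 0.32 with 8 of 31 high (25.8%) and 3 low, from Gbp4 at -1.99 to Isg15 at 2.19. Isg15 was at 0.679, 0.892 and 1.15 CPM in total RNA, so it passed the filter only with the RPF libraries, where it was higher. Per length 4 of the 31 were high, with a median of 0.07 against 0.09 over all protein-coding genes. Replication-dependent histones had a median of 0.42 with 12 of 54 high (22.2%) and 5 low, at a median of 12.8% unique windows, from Hist3h2a, with 113 reads in total RNA and none in RPF (at least 19.6-fold lower), to Hist1h3d at 1.91.

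Long noncoding RNAs had few footprints for their RNA. Of 531 tested, 342 were low (64.4%, against 19.7% of all genes) and 35 high (6.59%, against 14.3%), with a median of -1.81. The 531 include 110 genes that the annotation labels TEC rather than noncoding. Of these TEC genes 98 were low (89.1%), with a median of -5.30, which raises the share of low calls in the set. Low calls were made in 96 of 144 lincRNAs (66.7%), with a median of -1.79, and in 19 of 25 bidirectional promoter lncRNAs (76.0%). They were fewer in processed transcripts (61 of 105, 58.1%) and antisense RNAs (59 of 136, 43.4%). All 5 nuclear lncRNAs tested were low. Malat1, known to be retained in nuclear speckles, was at 1923, 1583 and 2063 CPM in total RNA and 32.6, 40.2 and 51.6 CPM in RPF (log2 TE -5.49, SE 0.18). The total RNA libraries are of cytoplasmic RNA, and how nuclear RNA came to be in them was not tested. Firre was the least low at -3.79, with 2.32, 1.62 and 2.42 CPM in total RNA and 0.173, 0.139 and 0.113 CPM in RPF. It passed the filter through total RNA alone, where it was higher. Of 13 snoRNA host lncRNAs, which are exported and short-lived, 11 were low with a median of -1.51. Gas5, a member with a TOP start, was at 374, 351 and 371 CPM in total RNA and 115, 79.5 and 106 CPM in RPF (log2 TE -1.86, SE 0.12), Snhg20 was lowest at -2.63 and Snhg3 highest at -0.13, which turned to 1.74 with counts of both strands. Small RNAs were divided, with 74 of 118 snoRNAs high and 18 low, 42 of 97 snRNAs high and 34 low, 35 of 42 miRNA genes high and 4 low, 4 of 17 scaRNAs high and 8 low, and 1 of 35 RNAs annotated as miscellaneous high and 31 low. A ratio of this kind in a short noncoding RNA is a ratio of library content, not of translation. T cell receptor V segments, which are parts of the receptor mRNAs, were high in 47 of 57 cases (82.5%, against 14.3% of all genes) with a median of 1.78. A segment is counted apart from the rest of its mRNA, so this ratio is not that of the whole mRNA. TE per length and unique windows were not computed for these segments, and their part was not tested.

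Some genes had footprints and almost no RNA. In 38 protein-coding genes called high the 3 total RNA libraries held at most 3 reads together. Chadl, a cartilage matrix protein, had no reads in total RNA and 2548, 3064 and 2282 reads in RPF, at least 5050-fold higher against a floor of 3 counts over the group. Adgrb3, an adhesion receptor of neurons, was at 0.170, 0.0558 and 0 CPM in total RNA and 76.2, 226 and 137 CPM in RPF. Cplane1, a ciliary gene, had 14.95, 13.3 and 19.9 CPM in total RNA and 41.8, 867 and 1167 CPM in RPF, so RPF replicate 1 stood far below the others. Chadl, Adgrb3 and Cplane1 were among the 10 highest genes by the naming rule without the filters on total RNA and unique windows, as was Sf3a2. The 38 also hold genes typical of liver or kidney. Alb, serum albumin, had 1, 0 and 1 reads in total RNA and 114, 91 and 57 in RPF, Cp, ceruloplasmin, 1, 0 and 0 against 96, 115 and 156, and Kl, the renal protein klotho, 0, 0 and 0 against 196, 140 and 180. In RPF of *Rnmt* cKO cells Alb had 57, 47 and 117 reads and Kl 89, 263 and 106. Reads of Alb and Kl were thus present in each of the 6 RPF libraries of the series, and their source was not tested.

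TE was also fitted in the other genotype, from libraries that the control values do not share. The TE fitted from the *Rnmt* cKO libraries was below 0 in 3 of the 1294 genes high in control cells and above 0 in 6 of the 1704 low ones, without a test. Both genotypes share the way of counting, the coding sequences and the kinds of library. What part these have in the shared signs was not tested. In the test of the difference over all 12 libraries, TE was higher in *Rnmt* cKO in 270 protein-coding genes (2.63%) and lower in 640 (6.23%). Ribosomal protein mRNAs were higher in 45 of 80 and lower in none, with a median TE of -0.84 in *Rnmt* cKO cells against -1.58 in control cells, and other TOP mRNAs higher in 10 of 20. Of the 80, 60 had under 10% unique windows, so their RPF values are uncertain. Eef1a1, with 11.5% unique windows, rose by 1.00 on the log2 scale (SE 0.13, edgeR adjusted p = 0.00036).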

How the data were processed

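Gene counts of 3 total RNA and 3 RPF libraries of control cells were used, with the 6 *Rnmt* cKO libraries for the test of a difference between genotypes. The deposited values are raw read counts per gene, made by the authors with Cutadapt, removal of rRNA and tRNA reads with Bowtie, and STAR 2.5.2b on mm10, and the column for the strand of the kit was read. Reads aligned to several places (22.9% to 30.1% of reads per control library), to no gene or to more than 1 gene were left out of library sizes. A further table of the authors holds rescaled counts and their own genotype comparisons, and was not used. Counts were tested with edgeR 4.0.16 in R 4.3.3 (TMM, quasi-likelihood, Benjamini-Hochberg over all genes tested), and the steps were tested on simulated data. Transcript features came from GENCODE vM21 on GRCm38.

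Members and lists were chosen with earlier results of these data known. Named genes were, in each direction, the 10 called protein-coding genes with the largest log2 TE whose mean abundance was at least 4 in log2 CPM, whose 2 kinds of library did not overlap, whose 3 same-numbered ratios had 1 sign and whose TE per length was past 2-fold the same way, without mitochondrial and histone genes, besides a fixed list of single genes and the highest and lowest member of each list of 5 or more. The same rule with at least 90% unique windows and 1 CPM in all 6 libraries, and other genes named, were chosen after values were seen. Deviations from the group mean in total RNA and RPF libraries of the same number correlated at 0.131, 0.206 and 0.317 over 7318 genes, so the numbers pair the samples. Alternatives covered scaling, filters, DESeq2 1.42.0, offsets, strand, pairing and leaving out each library. The GC offset was the trend of these same log2 TE values with GC content of the CDS, so it takes out that trend whatever its source. The offset for CDS share came from the annotation. Some genes that the rule names are not reported here.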

Additional observations from a re-analysis of the deposited data

Results flagged for a closer look

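The genes below had a TE that differed between *Rnmt* cKO and control cells in edgeR's interaction test over 12 libraries (adjusted p below 0.05). Values are *Rnmt* cKO minus control on the log2 scale. Rnmt itself, the deleted gene, was at -1.62 (adjusted p = 6.7e-06). Among mRNAs of the translation machinery Eef1a1 was at 1.0, Rpsa at 1.14, Tpt1 at 0.63 and Eif3f at 0.61. Unique windows were 11.5% in Eef1a1, 0% in Rpsa and Tpt1 and 99.0% in Eif3f, so the RPF values of Eef1a1, Rpsa and Tpt1 are uncertain. Pcbp1, high in control cells, was at -2.47 (adjusted p = 0.00028), Gm17087 at -1.62, Tgfb1 at -0.82, Myh9 at -0.55, Slc7a5 at -0.47 and Actb at -0.43. Adamts6, low in control cells, was at -1.05. Mrpl23 was at 1.19, Tmsb10 at 0.72, Psma5 at 0.6, Taf1d at 0.53, Pdha1 at 0.41 and Tcp1 at 0.39. Mrpl23 and Tmsb10 had 0% unique windows and Psma5 10.6%, so their RPF values are uncertain too. The noncoding RNAs Malat1 and Gas5 were at 1.07 and 0.71.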

How the results depend on the processing

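The counts of 1294 high and 1704 low protein-coding genes stayed within 1.5 times under each alternative run on all protein-coding genes, from 1110 to 1938 high and from 1327 to 2124 low. Refitted on the 7919 genes with at least 90% unique windows alone, 987 were high and 1167 low, against 1052 and 1081 of the same genes. Leaving out 1 library gave 1227 to 1324 high and 1587 to 1623 low. The replicate block gave 1299 and 1729 and changed no call of a named gene. DESeq2's Wald test gave 1336 and 1650. The share of CDS as an offset gave 1938 high and 1545 low, and no TMM scaling 1823 and 1327. Direction reversed for Cd28 (1.26) and Cdk6 (1.54) with the CDS share as an offset and for Snhg3 (1.74) with counts of both strands, and the cause was not tested. Among list medians that changed sign were other TOP mRNAs (0.17), mitochondrially encoded mRNAs (0.42) and B cell markers (0.14) with GC content as an offset, other TOP mRNAs (0.51), selenoproteins (0.05) and B cell markers (0.21) over members with at least 90% unique windows, and SR proteins and Clk kinases (0.21), selenoproteins (0.04) and B cell markers (0.34) per length. The medians of CD8 and regulatory T cell markers also changed sign with single libraries left out. The Il7r log2 TE was -0.974 and -0.996 without RPF replicate 2 or 3, and B cell markers had a median of 0.81 without total RNA replicate 3, against -0.06. The 90% limit on unique windows and the GC offset were chosen after seeing the data. The lower depth of the RPF libraries limits genes of few reads. Reads lost to repeated sequence may limit the low calls, and their part was not tested.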
